A study of Mus musculus with 12 samples.

Results

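SR proteins and the Clk kinases that phosphorylate them were followed here through 10 genes, Srsf1, Srsf2, Srsf3, Srsf5, Srsf6, Srsf7, Srsf11, Tra2b, Clk1 and Clk4, of the 49585 genes in the count files. The genes were picked by symbol because their transcripts include versions with poison exons or detained introns, and earlier results of these data were known when they were picked. Such versions, where they reach the cytoplasm, would be in total RNA without matching ribosome footprints. The study compared activated CD4 T cells that lack RNMT, the methyltransferase that completes the mRNA cap, with cells that have it. Control cells came from female mice of genotype Rnmt fl/fl CD4cre -, and Rnmt cKO (conditional knock-out) cells from female Rnmt fl/fl CD4cre + mice. All mice therefore carried floxed Rnmt, and the Cre of the knock-out mice is driven by Cd4 sequences, which are active from the thymus onward. Naive CD4 T cells were taken from lymph nodes and stimulated for 20 h on plates that had been coated with antibodies to CD3 (5 ug/ml) and to CD28 (1 ug/ml), with 0.1 mg/ml cycloheximide added for 1 min before lysis. From each genotype 3 libraries of total cytoplasmic RNA and 3 libraries of ribosome protected fragments (RPF) were made, 12 libraries in all, and the labels do not say whether they came from separate mice, so p-values measure the spread between these libraries.

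SR proteins bind exons through RNA recognition motifs and recruit the spliceosome through domains rich in arginine and serine. Clk kinases phosphorylate those domains in the nucleus, which releases SR proteins from nuclear speckles. The family controls its own dose: an SR protein in excess promotes splicing of its own transcript to a version with a premature stop codon, which nonsense-mediated decay (NMD) removes once a ribosome has read it, while Clk1 and Clk4 transcripts can be held in the nucleus with introns that are spliced on demand. T cell activation is a setting in which many exons change their splicing.

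All 10 genes had transcripts of the NMD and the retained intron type in the comprehensive GENCODE vM21 annotation (build GRCm38), and none of these transcripts was in its basic set. Of the 9985 protein-coding genes tested here in both kinds of library, 25.1% had both types. In Srsf3, Srsf7, Srsf11 and Tra2b the premature stop lay in an exon with no base in the basic set. That exon was 456 bases long in Srsf3 (chr17:29039454-29039909, plus strand), 460 in Srsf7 (chr17:80204622-80205081, minus strand), 109 in Srsf11 (chr3:158024123-158024231, minus strand, beside a second such exon of 117 bases at chr3:158023243-158023359 in another transcript) and 276 in Tra2b (chr16:22258986-22259261, minus strand). In Srsf5 it was 266 bases long (chr12:80947116-80947381, plus strand), of which 71 were in basic exons. In Clk1, Clk4 and Srsf1 the stop lay in an exon that the basic transcripts hold whole (chr1:58419667-58419733 on the minus strand, chr11:51271800-51272022 and chr11:88049977-88050095 on the plus strand), at a place where the basic transcripts do not stop. In Srsf2 and Srsf6 the stop was also used by a basic transcript. The reading frame into the premature stop is shown for the 8 genes other than Srsf2 and Srsf6, because it is the feature for which they were chosen. Each stretch ends at that stop codon, which is in capitals, and starts at the start of the exon or, where the stop lies deeper in it, 30 bases from the end of the stop:
Srsf3: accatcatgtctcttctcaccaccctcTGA
Srsf7: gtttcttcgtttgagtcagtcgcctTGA
Srsf11: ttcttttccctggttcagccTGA
Tra2b: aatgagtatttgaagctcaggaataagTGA
Srsf5: ggcttctctgtaTAG
Clk1: atgaaattgttgatacttTAG
Clk4: tcactattTAG
Srsf1: aagagatggattaagaatgctttggatTAA
Bases that only NMD or retained intron transcripts cover came to 5341 in Tra2b, 5265 in Srsf3, 5190 in Clk1, 5142 in Srsf11, 3737 in Clk4, 2332 in Srsf5, 1118 in Srsf6, 971 in Srsf7, 955 in Srsf2 and 152 in Srsf1. The study counted reads over a basic annotation (release vM12), so reads that lie wholly in such bases would not be in the counts of these genes where that release has the same basic exons.

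A second feature of these genes bears on the counts. Reads that map to several places were not counted, and processed pseudogenes, which are copies of spliced mRNA elsewhere in the genome, repeat the coding sequence of some SR genes. In Srsf3, 94.2% of the 30-base windows of the coding sequence also stood, base for base, in an annotated transcript of another gene, chiefly the processed pseudogene Gm9761, which alone held 88.3%. For Tra2b the share was 85.3% (Gm10254 held 78.9%), for Srsf5 it was 69.7% (all in Gm12966) and for Srsf7 it was 13.0%. Clk1 and Clk4 shared 0.352% and 0.354% of their windows, with each other, and Srsf1, Srsf2, Srsf6 and Srsf11 shared none. Among the 9990 genes with a protein-coding transcript that were tested in both kinds of library, 68.9% shared no window and 7.89% shared more than 50%. Values of Srsf3, Srsf5 and Tra2b, in RPF above all, therefore rest on a fraction of their coding sequence and are uncertain as levels.

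Total RNA libraries held between 15079703 and 22629563 counts on genes and RPF libraries between 4123271 (Rnmt cKO replicate 3) and 10661356. The 10 genes were well covered in total RNA, from 1101 reads (Clk4) to 20988 (Srsf1) in a library, and more thinly in RPF, from 109 (Clk4) to 9195 for Srsf1 and 9759 for Srsf2. Rnmt itself was low in the libraries labelled Rnmt cKO. Its total RNA was 95.5, 94.1 and 94.3 CPM (the read count scaled to the normalised library size, so that it is relative to the library and RNA per cell was not measured here) in the controls and 29.3, 32.4 and 30.4 in Rnmt cKO, and its RPF fell from 104, 87.9 and 98.9 CPM to 10.5, 10.4 and 9.60 CPM, a log2 fold change of −3.24 ± 0.10 (SE, edgeR adjusted p = 4.81e-06). All 8 markers of CD4 T cells were above 1 CPM in every group, with a summed total RNA level of 3398 to 3677 CPM in controls and 2547 to 2914 CPM in Rnmt cKO. A list of 8 B cell genes summed to 291 to 308 CPM in control total RNA and 207 to 334 CPM in Rnmt cKO, of which Ighm averaged 281 and 208 CPM. The number of its genes above 1 CPM on average was 5 in the controls and 8 in Rnmt cKO, and of the 6 tested in total RNA 2 were increased and 1, Ighm, was decreased (median log2 fold change 2.05). In RPF the B cell genes summed to 125, 117 and 182 CPM in the controls and 289, 326 and 89.8 CPM in Rnmt cKO, with 3 of 8 increased (median 2.07), beside 14.1% of all genes. NK genes summed to 0.902 to 2.01 CPM in control total RNA and 3.33 to 4.55 CPM in Rnmt cKO, and myeloid genes to 1.70 to 2.26 and 2.81 to 6.25 CPM, so that both were higher in every Rnmt cKO library. Of 7 myeloid genes 2 were at 0 in the 3 control libraries of total RNA. Cd8a and Cd8b1 together came to between 9.85 and 41.7 CPM in total RNA and between 15.3 and 53.7 CPM in RPF. Of 8 activation genes 6 were increased in total RNA of Rnmt cKO, and of 8 CD4 T cell markers 5 were decreased. Among all genes, 26.3% were increased and 28.0% decreased in total RNA. The part of the differences in these cell type and activation genes in what follows was not tested.

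In control cells the members spanned a wide range of abundance per length. Per kilobase of exon, total RNA was 245 ± 9.23 CPM for Srsf2 and 193 ± 7.80 for Srsf1 (SD, n = 3), followed by Srsf5 at 137, Srsf6 at 120, Srsf3 at 98.7, Clk1 at 96.8, Srsf7 at 84.1, Srsf11 at 79.6, Clk4 at 37.7 and Tra2b at 28.4. Libraries of neighbours in this order did not overlap, except for Srsf3 (96.1 to 104) and Clk1 (95.3 to 99.3). The spread between libraries does not cover reads left uncounted because they map to several places. Over the whole transcript, 37.9% of the windows of Srsf3, 37.5% of Srsf5 and 21.2% of Tra2b were shared with other genes, so their places are uncertain. Srsf7 and Srsf11 were nearly level, with their nearest libraries at 80.9 and 80.3 CPM per kilobase.

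The first comparison asked whether loss of RNMT changed the total RNA of these genes. Srsf1, Srsf3, Srsf5 and Srsf6, which are classical SR proteins, were lower in Rnmt cKO cells. They fell by 20.7%, fell by 16.9%, fell by 18.3% and fell by 14.2% respectively, and the other 4 SR genes and both kinases did not pass the test. Srsf1, a founding SR protein with a part in splicing and in mRNA export and translation, stood at 1081, 1111 and 1026 CPM in the controls and at 823, 853 and 875 CPM in Rnmt cKO (log2 fold change −0.33 ± 0.06, SE, edgeR adjusted p = 0.0021). The groups were far apart, with every Rnmt cKO library below every control. Srsf5 fell from 225, 223 and 233 CPM to 184, 180 and 191 CPM (−0.29 ± 0.05, edgeR adjusted p = 0.0022). Srsf3, the smallest SR protein, which also acts in mRNA export, fell from 251, 272 and 251 CPM to 216, 218 and 210 CPM (−0.27 ± 0.06, edgeR adjusted p = 0.0050). For Srsf6 the controls were at 445, 439 and 450 CPM and the Rnmt cKO libraries at 379, 380 and 385 CPM (−0.22 ± 0.05, edgeR adjusted p = 0.0086). In these bulk samples fewer transcripts per cell and fewer cells of a type cannot be told apart.

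The 4 decreased genes compare with a background in which 28.0% of the 11519 genes tested were decreased, 26.3% increased and 54.2% changed, so 4 of 10 is a share of the size found across the transcriptome. The groups did not overlap for 6 of the 10 genes, beside 62.3% of all genes. The other members moved little. Srsf2, which also has a part in transcription elongation, was at 486, 512 and 476 CPM in the controls and 560, 546 and 517 CPM in Rnmt cKO (0.14 ± 0.06, edgeR adjusted p = 0.088), and its Rnmt cKO libraries all lay above the controls by a small margin. Srsf7, an SR protein that also carries a zinc knuckle, was at 209, 232 and 210 CPM against 230, 237 and 213 CPM (0.06 ± 0.07), and these overlapped. Srsf11, an SR-related protein, was at 259, 258 and 253 CPM against 259, 261 and 267 CPM (0.03 ± 0.05), a difference of 2.29%. Tra2b, an SR-like activator of exon inclusion, was at 94.7, 106 and 100.4 CPM against 119, 111 and 95.5 CPM (0.11 ± 0.09), with Rnmt cKO replicate 3 at the control level. Without that replicate, Srsf2 (0.18) and Tra2b (0.21) passed the threshold as increased. Clk1 was at 171, 172 and 178 CPM against 171, 160 and 193 CPM (0.01 ± 0.07). Clk4 was at 75.8, 82.8 and 74.3 CPM against 74.7, 74.7 and 83.5 CPM (0.00 ± 0.07). For both kinases the relative total RNA of the genotypes overlapped.

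**Figure D1:**
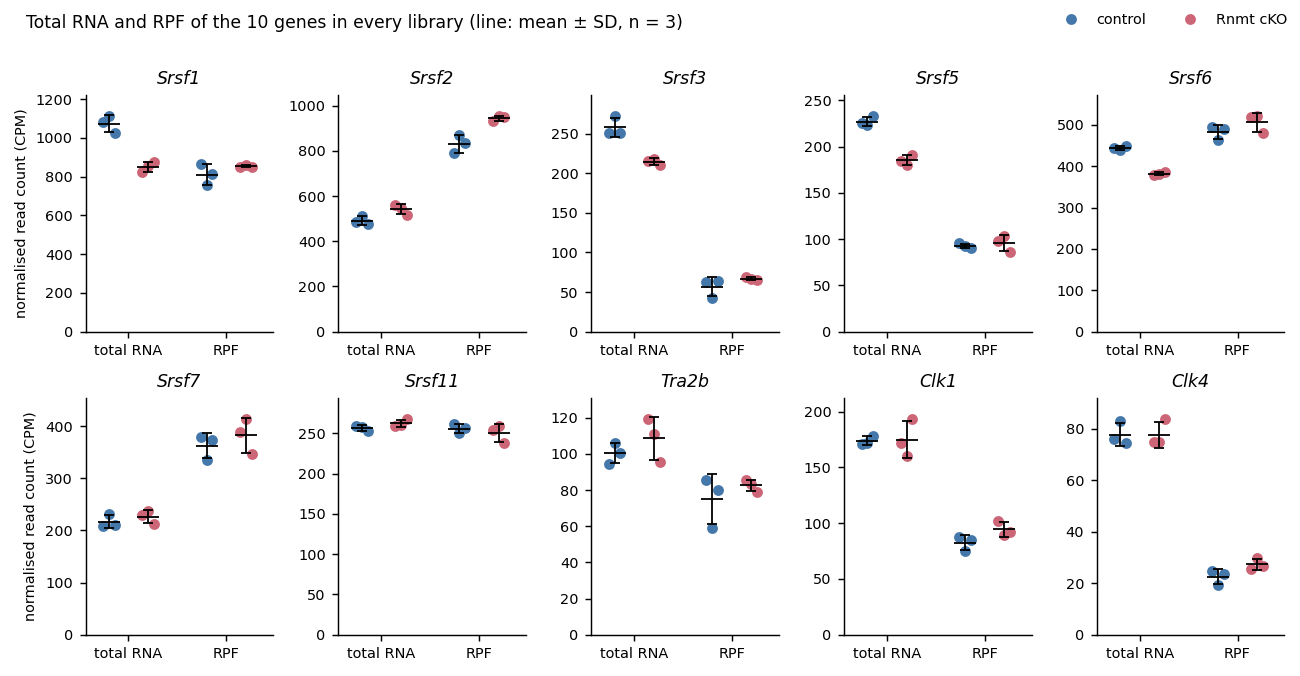
Normalised read count (CPM, vertical axis from 0) of each gene in the 3 control (blue) and 3 Rnmt cKO (red) libraries of total RNA and RPF, with the mean ± SD as lines. Srsf1, Srsf3, Srsf5 and Srsf6 have lower total RNA in Rnmt cKO with no overlap, while RPF of the same genes is level or slightly higher.

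Ribosome footprints were compared next. None of the 10 genes passed the edgeR test in RPF, where 29.8% of the 11428 genes tested changed (15.7% decreased and 14.1% increased). At an unadjusted p under 0.05 there was 1, Srsf2, which DESeq2 also called. Srsf2 had RPF of 789, 869 and 837 CPM in the controls and 931, 953 and 950 CPM in Rnmt cKO (0.18 ± 0.06, edgeR adjusted p = 0.060). The Rnmt cKO libraries were all above the controls for Srsf2, Srsf3, Clk1 and Clk4, 4 of 10 genes, beside 46.5% of all genes whose groups did not overlap. Srsf3 had RPF of 62.7, 42.7 and 64.2 CPM against 69.0, 66.1 and 65.2 CPM, so that its change of 0.24 ± 0.14 leaned on control replicate 2 and was 0.07 without it. Clk1 had RPF of 87.2, 75.2 and 85.1 CPM against 102, 89.0 and 92.0 CPM (0.19 ± 0.09, edgeR adjusted p = 0.12). Clk4 had RPF of 24.9, 19.1 and 23.7 CPM against 25.4, 29.7 and 26.8 CPM (0.27 ± 0.13, edgeR adjusted p = 0.14). For both kinases the nearest libraries of the groups were close, neither change passed the test, and without control replicate 2 the changes were 0.13 for Clk1 and 0.17 for Clk4.

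The 3 genes with lower total RNA other than Srsf3 had level RPF relative to the library, and footprints per cell were not measured. For Srsf1 the RPF was 864, 756 and 813 CPM in the controls and 851, 860 and 849 CPM in Rnmt cKO, for a log2 fold change of 0.07 ± 0.07. For Srsf5 it was 95.3, 92.3 and 90.2 CPM against 97.5, 104 and 86.1 CPM (0.05 ± 0.08). For Srsf6 it was 496, 465 and 489 CPM against 518, 521 and 480 CPM (0.07 ± 0.06). In each of the 3 the groups overlapped. Srsf7 (378, 335 and 373 against 389, 412 and 346 CPM), Srsf11 (261, 250.1 and 256 against 255, 259 and 238 CPM) and Tra2b (85.7, 59.2 and 79.9 against 85.4, 83.3 and 79.2 CPM) overlapped as well. Control replicate 2 was the lowest control RPF library for 8 of the 10 genes, beside 37.6% of all genes, and Rnmt cKO replicate 3, the shallowest library, was the lowest of its group for 7, beside 37.2%.

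Translation efficiency (TE) is RPF relative to total RNA, and its change between genotypes is the effect in RPF minus the effect in total RNA, tested as an interaction over the 12 libraries. Each kind of library was scaled to itself, so a TE change is relative to other genes and gives no absolute rate of translation. The study reports less mRNA and less puromycin incorporation per cell in activated Rnmt cKO cells, and it infers no absolute differences in translation from footprints. Srsf1, Srsf5 and Srsf6 were increased in TE by 32.8, 27.2 and 22.1%, and no member was decreased. The 3 increases of 10 stand beside 3.24% of the 10668 genes tested that were increased, 6.57% that were decreased and 9.81% that changed. Since the members were chosen with earlier results of these data known, these shares are a description and not a test of the group. For Srsf1 the log2 ratio of RPF to total RNA was −0.32, −0.56 and −0.34 in the control pairs and 0.05, 0.01 and −0.04 in the Rnmt cKO pairs (TE change 0.41 ± 0.09, SE, edgeR adjusted p = 0.013). Every Rnmt cKO pair was above every control pair. For Srsf5 the ratio rose from −1.24, −1.27 and −1.36 to −0.92, −0.80 and −1.15 (0.35 ± 0.09, edgeR adjusted p = 0.033), and for Srsf6 from 0.16, 0.08 and 0.12 to 0.45, 0.45 and 0.32 (0.29 ± 0.08, edgeR adjusted p = 0.038). Both were also without overlap, as were 4 of the 10 genes and 31.7% of all genes tested. Srsf3 had the largest TE change of the 10, 0.50 ± 0.16, but with an edgeR adjusted p of 0.066 it did not pass. Its control pairs were at −2.00, −2.67 and −1.96 and its Rnmt cKO pairs at −1.64, −1.72 and −1.68, and without control replicate 2 the change was 0.30.

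These TE calls sat near the threshold. With each pair of total RNA and RPF libraries as a replicate block, Srsf1 passed (edgeR adjusted p = 0.024) while Srsf5 (0.057) and Srsf6 (0.061) did not. In that fit 1 of the 10 was thus increased, beside 426 increased and 777 decreased of the 10668 genes tested. Leaving out control replicate 2 or Rnmt cKO replicate 1 left none of the 10 past the threshold, with Srsf1 at 0.33 and 0.38. Those 2 fits called 122 of 10541 and 136 of 10497 genes as increased. Leaving out control replicate 1, control replicate 3 or Rnmt cKO replicate 2 left Srsf1 alone. The remaining genes did not pass. Clk4 (0.27 ± 0.14, edgeR adjusted p = 0.26) and Clk1 (0.18 ± 0.12, adjusted p = 0.36) were on the higher side with overlapping pairs, and Srsf2 (0.04 ± 0.09), Tra2b (0.03 ± 0.16), Srsf7 (0.02 ± 0.11) and Srsf11 (−0.06 ± 0.08) were near 0. Without control replicate 2 the TE change was 0.12 for Clk4, 0.13 for Clk1, −0.09 for Srsf7 and −0.16 for Tra2b, and that of Clk1 was 0.10 without Rnmt cKO replicate 1. The median TE change of the 10 was 0.23, beside 0.04 for all genes tested, and was 0.13 without control replicate 2.

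**Figure D2:**
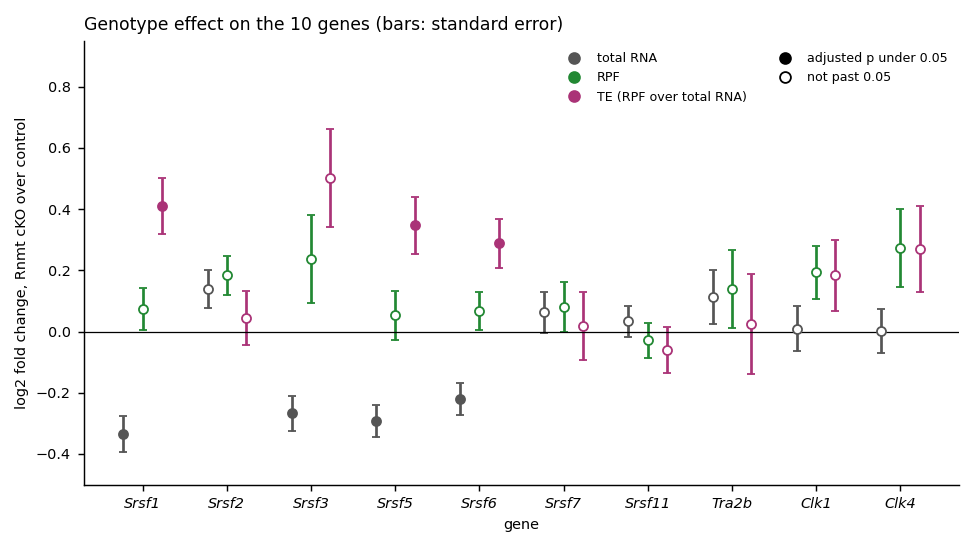
Log2 fold change, Rnmt cKO over control (vertical axis), in total RNA (grey), RPF (green) and TE (purple) for each gene, with the standard error as bars and filled points for adjusted p under 0.05. Total RNA is below 0 and TE above 0 in Srsf1, Srsf5 and Srsf6 with filled points, and Srsf3 has the same arrangement with an open TE point at 0.50. TE is from the fit without the replicate block, and with the block Srsf1 alone passed.

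**Figure D3:**
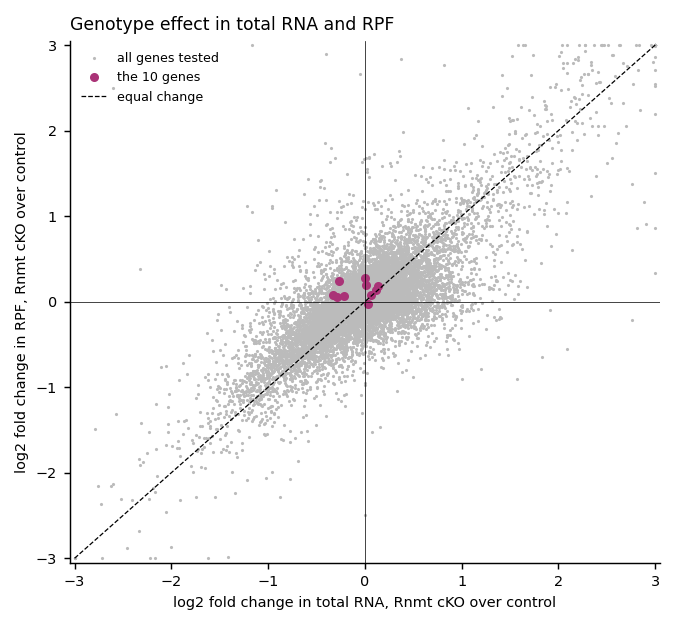
Log2 fold change in RPF (vertical) against that in total RNA (horizontal), Rnmt cKO over control, for the genes tested in both (grey, with values beyond 3 placed at 3) and the 10 genes (purple), with a dashed line where the changes are equal. Srsf1, Srsf3, Srsf5 and Srsf6 lie to the left of 0 and above the line, while Srsf2, Srsf7, Srsf11 and Tra2b lie close to it.

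In the controls, RPF relative to total RNA varied widely among the 10 genes. The members were chosen with a low ratio in mind, so these values are a description without a test. Set against the median gene on the log2 scale, the ratio was −2.40 ± 0.40 for Srsf3 (SD, n = 3 pairs, percentile 2.16 of the genes tested), −1.97 ± 0.28 for Clk4 (percentile 4.10), −1.49 ± 0.07 for Srsf5 (percentile 8.30) and −1.27 ± 0.11 for Clk1 (percentile 11.3). The counted RPF over total RNA was thus 0.189 times that of the median gene for Srsf3, which shares 94.2% of its coding windows with other genes, and 0.255 times for Clk4. Tra2b (−0.63 ± 0.36), Srsf1 (−0.60 ± 0.13), Srsf11 (−0.20 ± 0.03) and Srsf6 (−0.07 ± 0.04) were nearer to the median gene. Srsf7 (0.55 ± 0.18) and Srsf2 (0.56 ± 0.06) were above it, at percentiles 73.4 and 74.2. Srsf11 and Srsf6 stood at percentiles 41.8 and 46.8 in the controls, and in Rnmt cKO Srsf6 was above the median gene by 0.20.

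Srsf3, Srsf5 and Tra2b, which share 69.7 to 94.2% of their coding windows with other genes, held ranks 1, 3 and 5 from the bottom, and Clk4 and Clk1, which share less than 1%, held ranks 2 and 4. Rank 5 is not firm, since Tra2b (−0.63 ± 0.36) and Srsf1 (−0.60 ± 0.13) were level within their SD. The Tra2b value leaned on control replicate 2, where its RPF was lowest. The part of uncounted reads in the ratios of Srsf3, Srsf5 and Tra2b was not tested. Among protein-coding genes tested, the 2507 with NMD and retained intron transcripts had a median ratio of −0.03 relative to the median gene, and the others 0.02. In Rnmt cKO cells the order of the members was the same at the bottom, with Srsf3 at −1.89 ± 0.04, Clk4 at −1.71 ± 0.16, Srsf5 at −1.17 ± 0.18 and Clk1 at −1.10 ± 0.16. Medians of other lists of RNA-binding proteins lay above that of the members. The median was 0.04 for 24 other SR and SR-related genes, of which 12 were below the median gene and the lowest was at −1.39. It was 0.61 for 37 core spliceosome genes, with 4 below the median gene, and 0.87 for 32 hnRNP and poly(C)-binding protein genes, with 8 below, against −0.61 for the 10 members. The list called hnRNP and poly(C)-binding here also holds other RNA-binding proteins, Tia1, Tial1, Elavl1 and Tardbp among them.

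**Figure D4:**
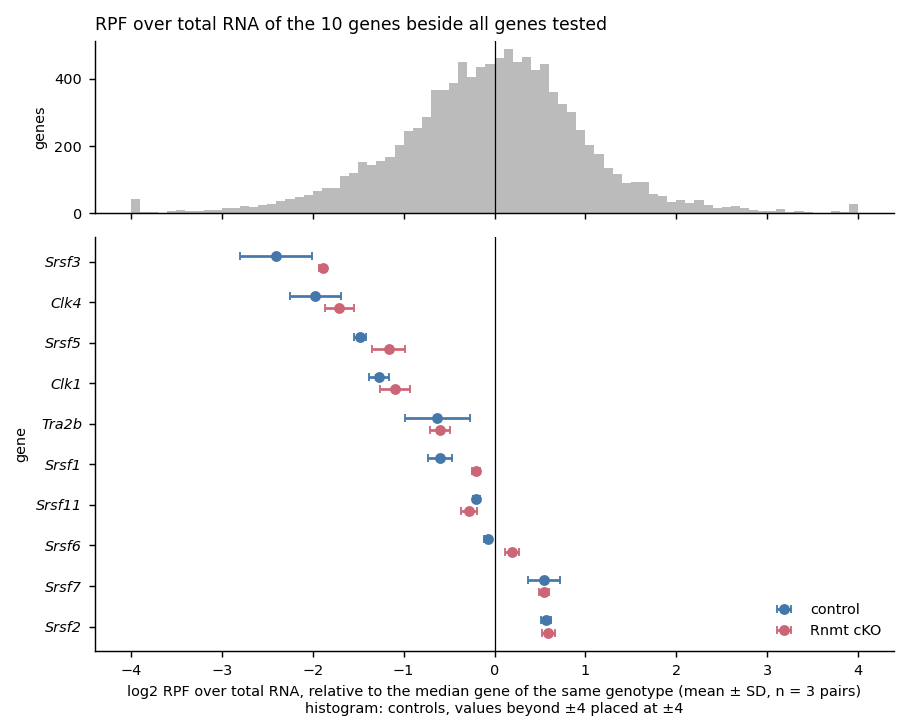
Log2 RPF over total RNA relative to the median gene (horizontal axis) for all genes tested in the controls (grey histogram, number of genes on the vertical axis) and for each of the 10 genes in control (blue) and Rnmt cKO (red), as mean ± SD of 3 pairs of libraries. Srsf3, Clk4, Srsf5 and Clk1 lie between −2.40 and −1.27 in the controls, and Srsf7 and Srsf2 lie above 0.

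Other SR and SR-related genes were measured as a list for comparison. This list and those below were also chosen with earlier results of these data known, so their counts are a description. Of 24 tested, 9 were increased and 2 decreased in total RNA, beside 26.3% and 28.0% of all genes. In RPF 3 were increased and 1 decreased, beside 14.1% and 15.7%. In TE 1 was increased and 5 decreased, beside 3.24% and 6.57%. The median change of the list was 0.10 in total RNA (0.06 without Rnmt cKO replicate 1) and −0.05 in TE. The TE median was −0.0020 without Rnmt cKO replicate 1 and −0.08 without control replicate 3. With 1 replicate left out, RPF increases ranged from 1 to 4, and total RNA decreases were 0 in 4 of the 6 fits. Counts over all genes moved in these fits too. They gave 2303 to 3145 increases and 2585 to 3151 decreases in total RNA. In RPF there were 1085 to 1414 increases and 1264 to 1526 decreases, and in TE 122 to 367 and 415 to 812. Srrm2, the large scaffold of nuclear speckles, had total RNA of 130, 148 and 169 CPM in the controls and 400, 574 and 323 CPM in Rnmt cKO (1.54 ± 0.20, edgeR adjusted p = 0.00046), whereas its RPF was 572, 591 and 633 CPM against 587, 660 and 591 CPM. Its transcript rose 2.90-fold with overlapping footprints, and TE was lower (−1.50 ± 0.23, edgeR adjusted p = 0.0012). Pnn, an SR-related protein of the exon junction complex periphery, had the same arrangement, with total RNA of 86.4, 78.0 and 98.9 CPM against 247, 235 and 212 CPM (1.40 ± 0.10) and a TE change of −1.57 ± 0.13. In RPF, Rsrp1 was decreased (−0.40 ± 0.09) and Luc7l, which associates with U1 snRNP, was increased (0.36 ± 0.09). Other genes named here were picked after their values were seen. Luc7l3 was the single gene of the list increased in TE (0.28 ± 0.08, edgeR adjusted p = 0.038), with lower total RNA (−0.14 ± 0.05), and Rbm39 was the other gene of the list with decreased total RNA (−0.17 ± 0.06). Of the 6 fits that each leave out 1 replicate, the TE call of Luc7l3 was lost in 5 (and with the replicate block, edgeR adjusted p = 0.067), its total RNA call in 6 and that of Rbm39 in 5. Srsf9, a close relative of Srsf1, was increased in total RNA (0.35 ± 0.11) and RPF (0.28 ± 0.06), while Srsf4, Srsf10 and Tra2a passed in neither. The total RNA change of Srsf9 was 0.22 without control replicate 2 and then did not pass, as without control replicate 1 or Rnmt cKO replicate 1, and the RPF call of Luc7l was lost without control replicate 3 or Rnmt cKO replicate 2.

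Of the kinases, phosphatases and import factors of SR proteins, 13 were tested. In total RNA 2 of the 13 were decreased and 4 increased, beside 28.0% and 26.3% of all genes. In RPF 3 were decreased and 2 increased, beside 15.7% and 14.1%. In TE 2 were decreased, beside 6.57%. Srpk2, which phosphorylates SR proteins in the cytoplasm before their import, was at 76.4, 75.3 and 69.0 CPM in control total RNA and 39.6, 32.0 and 38.2 CPM in Rnmt cKO (−1.01 ± 0.09, edgeR adjusted p = 8.37e-05). Its RPF fell alike, from 80.7, 70.7 and 63.1 CPM to 35.3, 31.0 and 37.9 CPM (−1.05 ± 0.12, edgeR adjusted p = 0.00054). Srpk1 did not pass in total RNA (0.00 ± 0.06) or RPF (−0.16 ± 0.07). Dyrk3, a kinase that dissolves nuclear speckles, was low in abundance and increased in total RNA (0.92 ± 0.16) and RPF (0.59 ± 0.19). Ppp1ca, a catalytic subunit of protein phosphatase 1, was decreased in RPF (−0.40 ± 0.07) and TE (−0.46 ± 0.12), and Prpf4b, a kinase of the spliceosome, in TE (−0.41 ± 0.10). The remaining Clk genes, named after their values were seen, moved apart. Clk2 was decreased in total RNA (−0.37 ± 0.07, edgeR adjusted p = 0.0040) and RPF (−0.30 ± 0.08, adjusted p = 0.023), and Clk3 was increased in total RNA (0.53 ± 0.08, adjusted p = 0.00068) and RPF (0.33 ± 0.09, adjusted p = 0.028), whereas Clk1 and Clk4 passed in neither. With 1 replicate left out, the RPF call was lost in 5 of 6 fits for Clk2, 4 for Clk3 and 5 for Dyrk3, and the TE call in 5 for Ppp1ca and 3 for Prpf4b. With the replicate block the TE decreases were also 2, and Ppp1cc, another catalytic subunit of protein phosphatase 1 that is also named after its values were seen, passed as increased (0.79, edgeR adjusted p = 0.025, beside 0.76 and 0.069 without the block). The TE decreases of this list were 0 without control replicate 1, control replicate 2 or Rnmt cKO replicate 1.

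The machinery that removes poison-exon transcripts was itself measured. Of 18 genes of NMD and the exon junction complex, 11 were increased and none decreased in total RNA, beside 26.3% increased and 28.0% decreased among all genes. In RPF 4 were increased and 1 decreased, beside 14.1% and 15.7% of all genes. Smg5, a factor that acts on phosphorylated UPF1, was increased in total RNA (0.61 ± 0.06, edgeR adjusted p = 8.41e-05) and RPF (0.26 ± 0.08). Dhx34, a helicase that acts with UPF1, was increased in RPF (0.41 ± 0.11), as was Eif4a3, the RNA-binding core of the exon junction complex (0.33 ± 0.08). Upf2 was increased in total RNA (0.42 ± 0.08) but decreased in RPF (−0.23 ± 0.07) and TE (−0.65 ± 0.11). In TE, 4 of the 18 were decreased and none increased, beside 6.57% and 3.24% of all genes. Of the 18, 2 were decreased without control replicate 1, control replicate 2 or Rnmt cKO replicate 1. The RPF calls of Smg5, Dhx34 and Upf2 were each lost in 5 of the 6 fits with 1 replicate left out, and that of Eif4a3 in 2. In total RNA 7 were increased without control replicate 1 or control replicate 2, beside 2303 of 11394 and 2463 of 11387 genes in the same fits. In RPF between 1 and 3 were increased with any 1 replicate left out, beside 1085 to 1414 of all genes.

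The core spliceosome and hnRNP lists had lower median TE in Rnmt cKO, where the 10 members had a higher one (−0.15 and −0.19 beside 0.13 without control replicate 2). Of 37 core spliceosome genes 17 were increased and 4 decreased in total RNA, beside 26.3% and 28.0% of all genes. In RPF 6 were increased and 4 decreased, beside 14.1% and 15.7%. In TE 1 was increased and 7 decreased (median −0.15), beside 3.24% and 6.57%. Without Rnmt cKO replicate 1 these counts were 3 and 1 in RPF and 0 and 4 in TE, and with any 1 replicate left out between 3 and 5 were increased and 1 to 3 decreased in RPF and 4 to 9 decreased in TE. In total RNA, 12 to 18 were increased and 2 to 5 decreased with any 1 replicate left out. Sf3b4, a subunit of the U2 snRNP, had total RNA of 8.38, 7.52 and 8.57 CPM against 17.7, 23.4 and 17.2 CPM (1.25 ± 0.14) and a TE change of −1.57 ± 0.22. Sf3a2, of the same particle, was increased in total RNA from 10.8, 9.53 and 11.9 CPM to 18.1, 32.7 and 13.8 CPM (1.00 ± 0.29). That change was 0.58 without Rnmt cKO replicate 2, the highest library, and did not pass without control replicate 1 (edgeR adjusted p = 0.061) or control replicate 2 (0.072). Prpf8, at the catalytic centre of the spliceosome, was increased in RPF (0.73 ± 0.08), as was Snrnp27 (0.36 ± 0.09, lost in 4 of 6 fits with 1 replicate left out), and the helicase gene Aqr was decreased in TE (−0.74 ± 0.12). Of 32 hnRNP and poly(C)-binding protein genes 9 were increased and 5 decreased in total RNA, beside 26.3% and 28.0% of all genes. Without Rnmt cKO replicate 3, 16 were increased, beside 3145 of 11281 genes in that fit. In RPF 2 were increased and 7 decreased, beside 14.1% and 15.7%, and in TE 5 were decreased (median −0.16), beside 6.57%. The RPF increases were 1 or 2 with any 1 replicate left out. Leaving out Rnmt cKO replicate 1 put the TE median at −0.09, while leaving out replicate 3 of that genotype put it at −0.24 with 8 decreased. Pcbp1, a poly(C)-binding protein, went from 54.7, 66.3 and 87.0 CPM to 304, 283 and 152 CPM in total RNA and from 1007, 1133 and 1095 CPM to 662, 709 and 694 CPM in RPF (TE change −2.47 ± 0.30, edgeR adjusted p = 0.00022). Tia1, a regulator of splicing and translation and one of the other RNA-binding proteins in this list, was decreased in total RNA (−0.92 ± 0.06) and RPF (−0.89 ± 0.10). Hnrnpl, which represses exons of CD45 in T cells, was decreased in TE (−1.26 ± 0.16).

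**Figure D5:**
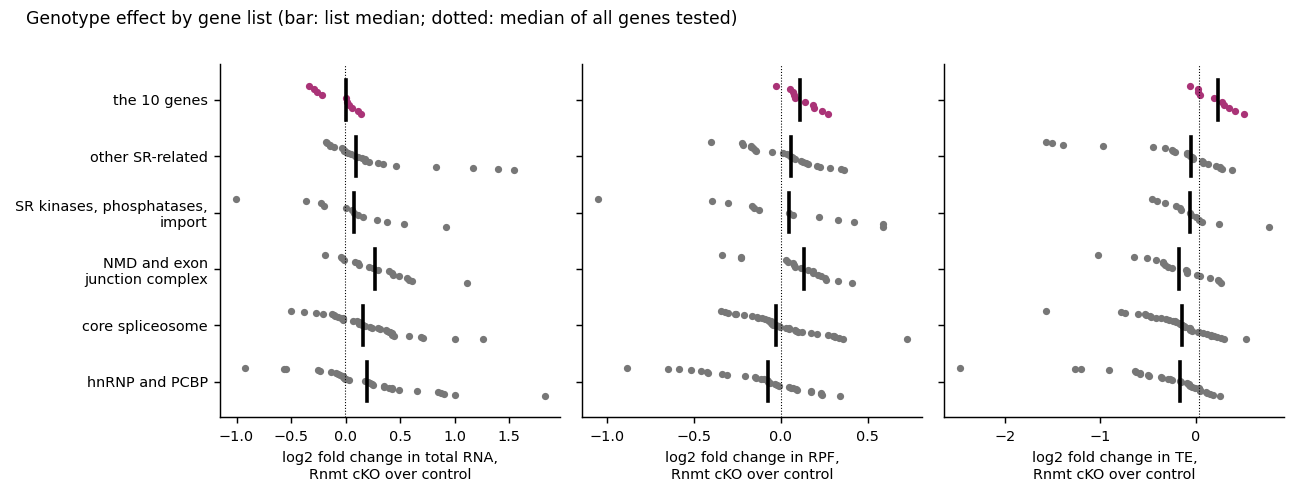
Log2 fold change, Rnmt cKO over control (horizontal axes), in total RNA, RPF and TE of the 10 genes (purple) and of 5 gene lists (grey), with list medians as bars and the median of all genes tested as a dotted line. The bar of the 10 genes is at 0.23 in TE, and the bars of the 5 lists are between −0.18 and −0.05, while without control replicate 2 the median of the 10 is 0.13.

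The levels of the members were finally compared across the 12 libraries, as a description, since the difference between total RNA and RPF libraries sets most of such a profile. Clk4, Clk1, Srsf5, Tra2b, Srsf3 and Srsf1, which all had less RPF than total RNA in the controls, correlated with the mean profile of the other members (Pearson r from 0.66 to 0.79), and Srsf11 less so (0.37). Srsf2, Srsf7 and Srsf6, with more RPF than total RNA in the control means, ran against it (−0.86, −0.79 and −0.60). The profiles most like the mean of the 10, among 6468 well-expressed genes, were those of Anapc16 (r = 0.963), Rplp2 (0.947), Rbx1 (0.943), Rnf14 (0.927) and Rpl30 (0.922). The profiles most like that of Clk1 alone were those of Nudt3 and Trim44 (0.992 each), Gpbp1 (0.991), Mob1a (0.990) and Stk11 (0.990).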

How the data were processed

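Members and lists were chosen with earlier results of these data known. The authors took read 2, trimmed it (cutadapt), removed rRNA and tRNA reads (Bowtie), aligned the rest to mm10 with STAR 2.5.2b over the GENCODE vM12 basic annotation and deposited raw read counts per gene. Counts on the gene's strand (95.4 to 97.5% of both strands) were used. Reads that overlapped no annotated exon on the counted strand and multimapping reads were left out of library sizes. A deposited table of the authors' own fold changes and p-values was used for gene symbols alone. Symbols and exons came from GENCODE vM21 (49326 of 49585 genes matched). Genes with CPM above 1 in at least 3 libraries of a kind were tested with edgeR 4.0.16 (R 4.3.3, TMM, quasi-likelihood, Benjamini-Hochberg, threshold 0.05), within total RNA, within RPF, and for TE as a genotype-by-library-type interaction over the 12 libraries, normalised within each type. RiboDiff, the study's TE tool, was not run. Fits were tested on simulated data. Figures were drawn with matplotlib 3.10.9. Across genes the typical (median) standard error of the log2 estimates was 0.10 for total RNA, 0.12 for footprints and 0.16 for TE. Mitochondrial rRNA made up 18.7 to 23.6% of gene counts in total RNA and 2.30 to 4.51% in RPF.

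Total RNA and RPF libraries of the same genotype and number deviated together from their group means (correlations across genes 0.11 to 0.38 in all 6 pairs). Their numbers were therefore taken to pair the libraries, which the labels do not state. The TE test was fitted without that block, and blocked values are given for calls of the members and of the named list genes that the block changed. No pair of replicates held the same counts for more than 1.38% of genes. Alternatives were another normalization (none, upper quartile, protein-coding genes alone), DESeq2 1.42.0, the exact test, other filters on low counts, both strands, unadjusted p, a replicate block and each replicate left out. Named list genes were the up to 2 largest changes past the threshold per list and comparison without overlap between genotypes, and the 5 profiles outside the lists most correlated with the members or Clk1. A gene that this rule names is not reported here. The count of coding windows shared with other genes (30 bases, exact match among vM21 transcripts) was added after the data were seen, as were the fits of list genes and lists with 1 replicate left out or, for TE, with the replicate block.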

Additional observations from a re-analysis of the deposited data

Results flagged for a closer look

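The genotype effect on Srsf1, Srsf5 and Srsf6 differed between total RNA and RPF by the test of the interaction. The effect in RPF minus that in total RNA was 0.41 for Srsf1, 0.35 for Srsf5 and 0.29 for Srsf6 on the log2 scale, with the Rnmt cKO pairs above the control pairs in 3 of 3 pairs for each gene. With the replicate block Srsf1 passed (edgeR adjusted p = 0.024), and Srsf5 (0.057) and Srsf6 (0.061) did not.

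Reads that overlapped no annotated exon on the counted strand, which no comparison above uses, were more frequent in total RNA of Rnmt cKO. They can lie in introns or on the other strand of a gene as well as between genes. They came to 13.8 per 100 gene counts on average (13.0 to 14.5) against 10.5 in the controls (10.1 to 10.8), with an exact two-sided permutation p of 0.1, the smallest that 3 libraries against 3 allow. In RPF the range was 6.91 to 20.9 against 4.50 to 9.35 (exact permutation p = 0.4), with Rnmt cKO replicate 3 at 20.9. What share of these reads lay in introns or poison exons of the 10 genes was not tested.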

How the results depend on the processing

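The 30 fold changes of the 10 genes in total RNA, RPF and TE were computed under 470 alternatives in all, of which 443 kept their side of the threshold, 18 lost the call, 9 gained it and 0 reversed a call. The sign of the estimate changed in 21 of the 470, all in changes not past the threshold and of at most 0.14 in size. The 4 decreases in total RNA (Srsf1, Srsf3, Srsf5 and Srsf6) kept direction and call in each of their 16 alternatives. Members increased in total RNA ranged from 0 to 2 with a replicate left out, the 2 being without Rnmt cKO replicate 3. In RPF, Srsf2 was increased, giving 1, with DESeq2, TMM over protein-coding genes alone, library size without TMM and unadjusted p. Counting both strands put the RPF change of Srsf2 at 0.08 (edgeR adjusted p = 0.39) and its TE change at −0.03. Members increased in TE ranged from 0 to 3 with a replicate left out, and were 1 with library size without TMM, with no filter on low counts and with the replicate block. Srsf3 passed in TE with DESeq2 (0.49), upper quartile normalization (0.55) and unadjusted p. The cause of these shifts was not tested. Across all genes, TE decreases ranged from 415 to 812 with a replicate left out and from 525 to 1359 otherwise (701 in the main test), and increases from 122 to 367 and from 214 to 1268 (346 in the main test). The largest shift that another scaling gave to the median of all genes was −0.05 on the log2 scale, with upper quartile normalization in total RNA.

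Among the 10 genes the replicate block changed no call in total RNA, where Srsf1 stayed at −0.33, or in RPF. In TE, beside Srsf5 and Srsf6, it ended the call of Luc7l3 (the increase in the other SR list, from 1 to 0) and added that of Ppp1cc (increases among kinases, phosphatases and import factors from 0 to 1), and each list kept its number of TE decreases to within 1. For list genes the block was run in TE alone. Control and Rnmt cKO libraries of the same number did not deviate together (correlations from −0.52 up to −0.22 for total RNA, and for RPF from −0.07 up to 0.15, with 0 of 6 total RNA and 2 of 6 RPF libraries correlating best with their own number), so there the libraries share a number alone. Clk4 had the fewest reads of the 10, with 109 to 304 RPF reads per library, while the standard errors of the TE change were largest for Tra2b (0.16) and Srsf3 (0.16).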
